A study of Mus musculus with 34 samples.

Results

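The comparison described here is that of polyA selection with rRNA digestion in mouse liver, and it used 18 of the 34 libraries of the series: 9 polyA libraries and 9 digestion libraries, chosen by their names and matched 1 to 1 by PCR ramp rate and fragment length. All of them came from the liver of 1 wild-type C57BL/6J mouse, 12 weeks old, and each was made from 200 ng of RNA with 13 PCR cycles and adapters that carry unique molecular identifiers. Every method was combined with slow, medium and fast ramps of the PCR cycler and with short, medium and long fragments, so each method had 1 library per combination. The reference libraries were 3 unselected liver libraries of batch 1 and 3 of batch 2, each made from 20 ng of total RNA with no removal of ribosomal RNA (rRNA), and the 9 liver libraries in which rRNA was pulled down. All unselected libraries had a slow ramp and medium fragments. Log2 differences against them came from a fit with ramp and length as factors, which takes the length effect as the same in every method. Unselected levels in CPM were not adjusted for ramp or length. All polyA libraries belonged to batch 1 and all digestion libraries to batch 2, and the 2 methods also used different library kits (TruSeq Stranded mRNA for polyA; Illumina Stranded Total RNA Prep with Ribo-Zero Plus, changed to take the same adapters, for digestion), so method, batch and kit cannot be told apart within these 18 libraries. Because 1 mouse gave all of the RNA, the spread between libraries is technical and the p-values say nothing about animals. The characteristics name the mouse as female and the growth protocol as male. The Y-linked RNA helicase gene Ddx3y was at 28.5 to 53.8, median 32.0 normalised CPM (counts scaled to the size of each library) in the polyA libraries and at 45.6 to 54.6, median 49.3 in the digestion libraries.

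Most messenger RNAs end in a poly(A) tail, and polyA selection captures that tail on oligo(dT) beads, so an RNA without a tail is washed away and a broken mRNA keeps only the piece that holds its 3′ end. In rRNA digestion, DNA probes anneal to rRNA and RNase H cuts the RNA strand of the hybrids. RNAs that no probe binds are meant to stay in the sample, whether or not they have a tail. The reagents of the digestion kit are also sold for the removal of globin mRNA. The liver is a tissue of few dominant cell types in which hepatocytes make most plasma proteins, and their mRNAs, such as those of albumin and the apolipoproteins, take a large part of any liver library.

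RNAs that lack a poly(A) tail are of several kinds, and sequences of some are shown first because their classes took a smaller share of every polyA library than of any digestion library. The U1 and U2 RNAs of the spliceosome are made as short stable RNAs. The sequences below are those of GENCODE release M21 on GRCm38, printed 5′ to 3′: Gm22513 (chr12:54696782-54696945, plus strand), with the bases of U1 that pair with the 5′ splice site in capitals, and Gm23849 (chr11:101627366-101627556, plus strand), with the bases of U2 that pair with the branch point in capitals.
Gm22513: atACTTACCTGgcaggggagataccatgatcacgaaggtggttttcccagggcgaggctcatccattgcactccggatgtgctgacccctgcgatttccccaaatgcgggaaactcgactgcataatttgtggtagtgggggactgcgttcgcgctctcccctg
Gm23849: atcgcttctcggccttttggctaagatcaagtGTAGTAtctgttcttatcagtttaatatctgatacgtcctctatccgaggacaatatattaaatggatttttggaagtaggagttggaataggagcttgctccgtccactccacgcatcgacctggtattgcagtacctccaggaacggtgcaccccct

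Replication-dependent histone mRNAs end in a stem-loop in place of a tail. The stem-loop, searched on the transcript strand as GG, any 3 of C or T, TTTTCA, any 3 of A or G, and CC, is in capitals in the 3 windows of Hist1h4c, Hist1h4d and Hist1h1e below. Hist1h1c also holds a stem-loop, and the last 40 bases of its representative transcript hold the poly(A) signal AATAAA, in capitals in the window of the last line.
Hist1h4c: aaaaGGCCCTTTTCAGGGCCaccca
Hist1h4d: caaaGGCCCTTTTCAGGGCCactac
Hist1h1e: caaaGGCTCTTTTCAGAGCCaccca
Hist1h1c: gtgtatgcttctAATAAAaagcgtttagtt

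The deposited estimated counts summed to 23.5 M to 41.4 M per polyA library and to 20.0 M to 30.2 M per digestion library. The pull-down libraries, which entered the scaling of normalised CPM but not the test of the methods, held 1.13 M to 39.2 M. Expression profiles were closer within a method than between methods: Spearman's rho across genes was 0.979 to 0.997 between polyA libraries, 0.991 to 0.997 between digestion libraries and 0.938 to 0.954 between a polyA and a digestion library. The quasi-likelihood test of edgeR was run on the 15283 genes that reached the equivalent of 10 counts in at least 3 of the 18 libraries, and at a Benjamini-Hochberg adjusted p under 0.05 it called 6021 (39.4%) higher in polyA and 6479 (42.4%) higher in digestion. The change was at least 2-fold for 1055 genes higher in polyA (6.90%) and 2246 higher in digestion (14.7%). The 9 values of one method did not overlap the 9 of the other for 7821 genes (51.2%). These splits depend on the scaling: TMM centred the median gene at a log2 difference of -0.03, while scaling by library totals put it at -0.27 and scaling by protein-coding totals at -0.34, which left 4007 and 3558 genes higher in polyA, or 32.0% and 28.1% of those called against 48.2%. Where the text gives a log2 difference it is polyA minus digestion under TMM, with its standard error.

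Structural and small RNAs took a far larger part of the digestion libraries than of the polyA libraries. The class of miscellaneous RNAs and ribozymes made up 3.47% to 4.41% of counts in digestion libraries and 0.00161% to 0.00372% in polyA libraries. Small nuclear RNAs made up 0.0221% to 0.0515% in digestion and at most 0.000269% in polyA, and small nucleolar and Cajal body RNAs 0.0224% to 0.0284% and at most 0.000418%. For these classes all 9 matched pairs were higher in digestion and no values overlapped (exact sign-flip test over 9 pairs, two-sided, p = 0.00391, the smallest it can give, and 0.00547 after adjustment over the classes). Nuclear protein-coding genes took 94.1% ± 1.21 of counts in polyA and 89.9% ± 0.519 in digestion (SD, n = 9), and were higher in polyA in 9 of 9 pairs by the same exact test (adjusted p = 0.00547).

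**Figure D1:**
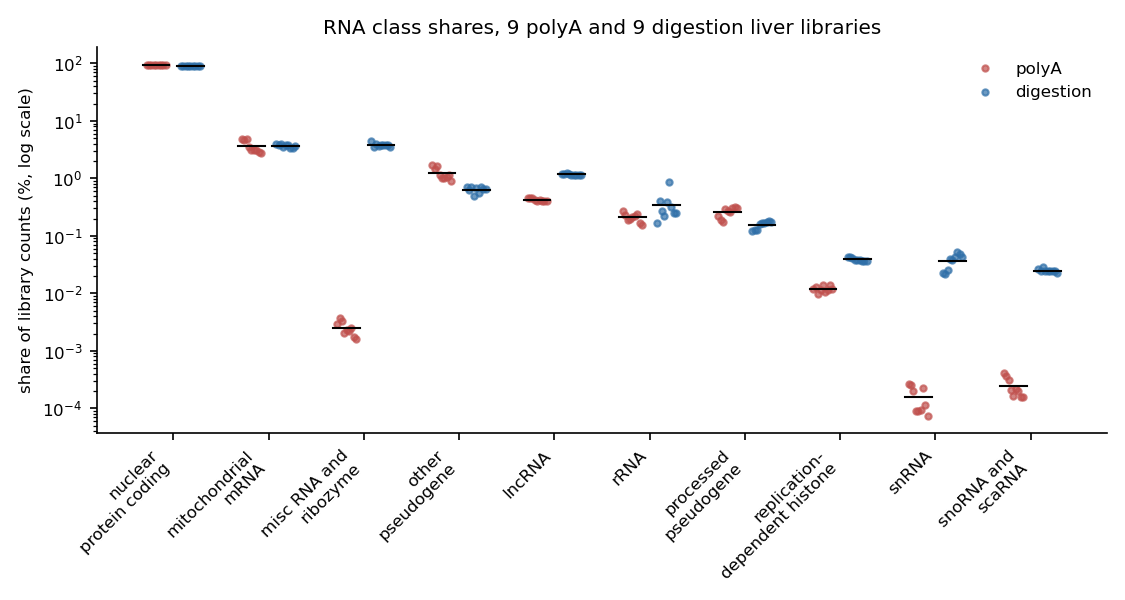
Share of library counts (percent, log scale) in each RNA class for the 9 polyA (red) and 9 digestion (blue) libraries; each point is 1 library and each line a mean. Small nuclear, small nucleolar and miscellaneous RNAs are far lower in polyA, while mitochondrial mRNA shares overlap.

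Both depletion methods left little rRNA. The rRNA share was 0.154% to 0.269% in polyA and 0.170% to 0.851% in digestion, against means of 72.9% and 70.6% in the unselected libraries of batches 1 and 2. The groups overlapped, and the difference passed the exact sign-flip test (p = 0.0273, adjusted p = 0.0348), with polyA higher in 1 of 9 pairs. One digestion library stood apart (fast ramp, medium fragments, 0.851%). Without its pair polyA was again higher in 1 of 8 pairs, the digestion share averaged 0.282% against 0.208% in polyA, and the exact test gave an unadjusted p of 0.0547. The share of the mitochondrial rRNAs was 0.0487% to 0.115% in polyA and 0.130% to 0.237% in digestion, with no overlap, and mt-Rnr1, the small mitochondrial rRNA, differed by -1.80 ± 0.11 (edgeR, adjusted p = 9.22e-11). The large one, mt-Rnr2, was at 184 to 469, median 237 normalised CPM in polyA and 184 to 438, median 304 in digestion, with overlap, and was not called (-0.03 ± 0.15, edgeR adjusted p = 0.847); with protein-coding totals it was (-0.35, edgeR adjusted p = 0.0454).

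Among the tested structural RNAs, most of them made by RNA polymerase III, 8 of 8 were at least 2-fold higher in digestion, with a median log2 difference of -10.05. Of these, 5 passed the filter on low counts only through the digestion libraries, a route that selects for a higher level there. Counts of tested genes in the classes below describe only the genes that passed that filter. Rn7s1, the scaffold of the particle that guides secretory proteins to the endoplasmic reticulum, was at 8.93 to 22.8, median 13.7 normalised CPM in polyA libraries and at 16400 to 21540, median 18600 in digestion libraries. Rn7sk, which holds the elongation factor P-TEFb in an inactive state, was at 0.701 to 1.87, median 0.885 and at 2663 to 3628, median 3038. Rpph1, the RNA subunit of RNase P, which trims tRNA precursors, was at 0.165 to 0.481, median 0.186 and at 811 to 1165, median 956. No polyA library came near a digestion library for any of the 3 genes, and the folds fitted by edgeR were 1252 for Rn7s1, 2925 for Rn7sk and 4045 for Rpph1. Unselected libraries held 4295 and 3820 normalised CPM of Rn7sk in batches 1 and 2, a level that digestion libraries approached (log2 -0.39 against batch 2) and polyA libraries did not (log2 -12.09 against batch 1).

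The U1 and U2 sequences shown above were also far lower in polyA than in digestion. Gm22513, which carries the U1 sequence, was at 0.220 to 0.913, median 0.334 normalised CPM in polyA and at 48.5 to 78.9, median 67.4 in digestion. Gm23849, which carries the U2 sequence, was at 0.0167 to 0.240, median 0.158 and at 40.2 to 119, median 87.9. Because copies of these genes are nearly identical, counts were also summed over each gene and its near copies, and the log2 differences were then -6.81 and -9.52. For U1 the sum averaged 77.3 in digestion, under the unselected means of 311 and 224 in batches 1 and 2. For U2 it averaged 133 in digestion, against 131 and 103. Scarna2, a guide RNA of the Cajal body, was at 0.0186 to 0.0833, median 0.0401 in polyA and at 9.12 to 17.8, median 14.1 in digestion. Few genes of these classes were tested: 18 of the 112 small nuclear RNA genes with counts and 42 of the 191 small nucleolar and Cajal body RNA genes. Each of those tested was at least 2-fold higher in digestion than in polyA. The median log2 difference of digestion from the unselected libraries of batch 2 was -0.79 and -1.07 for these classes, in that order. Of the tested genes, 17 of the 18 and 41 of the 42 passed the filter only through digestion libraries. The class shares above include all genes and do not depend on that filter. Genes that host small nucleolar RNAs in their introns did not share that direction: 12 of 16 were higher in polyA and 1 of 16 in digestion, with a median log2 difference of 0.55, and the spliced host Gas5 was at 37.8 to 65.7, median 41.1 in polyA and 12.8 to 17.8, median 14.1 in digestion (1.71 ± 0.05).

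Replication-dependent histones, which package newly made DNA in S phase, were mostly lower in the polyA libraries. Their summed level was 72.8 to 97.8 normalised CPM in polyA and 217 to 261 in digestion, against medians of 192 and 190 in the unselected libraries of batches 1 and 2. Of 67 listed genes 52 were tested, 48 were at least 2-fold higher in digestion and 1 was higher in polyA, and the median log2 difference was -6.35. The filter on low counts was passed only through digestion libraries by 43 of the 52, a route that selects for a higher level there. Of the 9 that polyA libraries alone would have passed, 5 were at least 2-fold higher in digestion, and the median of these 9 was -1.01. Among all genes that polyA libraries alone would have passed, 9.40% were at least 2-fold higher in digestion. Hist1h4d was at 0 to 0.0601, median 0.0372 normalised CPM in polyA and 11.6 to 13.8, median 13.1 in digestion. Hist1h1e, a linker histone, was at 0 to 0.194, median 0.0801 and 19.2 to 25.4, median 20.7. Hist1h4c was at 0.0200 to 0.167, median 0.0416 and 11.1 to 17.03, median 12.02, and Hist1h4h at 0.130 to 0.551, median 0.330 and 24.5 to 30.9, median 25.5. All 4 were separated without overlap, though polyA values under 0.0694 lie below the level of 3 counts, and their digestion levels lay at log2 -0.35 to 0.46 against the unselected level of batch 2.

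Of the 52 tested genes 4 did not reach a 2-fold difference: Hist1h2bc, Hist1h1c, Hist2h2be and Hist3h2a. Hist1h2bc, a core histone, was at 47.3 to 65.9, median 51.4 normalised CPM in polyA and 32.7 to 38.7, median 35.8 in digestion (0.63 ± 0.04, edgeR adjusted p = 4.16e-10). Hist1h1c, a linker histone, was at 13.5 to 17.4, median 15.1 and 20.4 to 24.9, median 22.0 (-0.56 ± 0.06, edgeR adjusted p = 7.70e-08). Hist2h2be was not called (0.10 ± 0.12, edgeR adjusted p = 0.449, of negative sign under library totals and protein-coding totals), and Hist3h2a differed by -0.54 ± 0.09 (edgeR adjusted p = 2.47e-05). Their annotated ends were of 3 kinds. The representative transcripts of Hist1h1c, whose end is printed above, and of Hist3h2a held both a stem-loop and AATAAA, with the stem-loop 840 and 1643 bases before the end. That of Hist2h2be held AATAAA and no stem-loop, and that of Hist1h2bc, the only one of the 52 called higher in polyA, held neither. The stem-loop was found in 28 of the 52 tested histone transcripts, and in 1 of the 13255 tested nuclear protein-coding transcripts outside that list (0.00754%), while AATAAA was in the last 40 bases of 62.5% of the latter. Of the 23 that held a stem-loop and no AATAAA in the last 40 bases, 19 passed the filter only through digestion libraries, and the 4 others were at least 2-fold higher in digestion. Of the 5 that held both, 3 passed only through digestion libraries, and the 2 others were Hist1h1c and Hist3h2a. The stem-loop was not found in 24 transcripts, of which 21 passed only through digestion libraries. For 8 of the 24 the annotation has no base after the stop codon, so no stem-loop could be found there. Replacement histones, most of which are made also outside S phase, had 5 of 9 higher in polyA and 2 of 9 in digestion, with none past 2-fold and a median of 0.42. The 2 were H2afj (-0.83 ± 0.14) and H2afx (-0.62 ± 0.08), and the gene of H2afx is intronless and known to give a stem-loop mRNA as well as a tailed one.

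Long noncoding RNAs made up 0.405% to 0.459% of counts in polyA and 1.14% to 1.23% in digestion (exact sign-flip test, adjusted p = 0.00547). Of 1166 tested, 412 were at least 2-fold higher in digestion and 69 in polyA, with a median log2 difference of -0.48. The filter was passed only through digestion libraries by 370 of them and only through polyA libraries by 47. Of the 783 that polyA libraries alone would have passed, 120 were at least 2-fold higher in digestion (15.3%), against 9.40% of all genes so passed. The median log2 difference of these 783 was 0.03, against 0.05 for all genes so passed. The sense-intronic biotype, annotated inside introns of other genes, had 142 tested, of which 115 passed only through digestion libraries. Of the 27 that polyA libraries alone would have passed, 14 were at least 2-fold higher in digestion (51.9%, against the 9.40% of all genes so passed). The sense-overlapping biotype had 6 tested, 5 of them passed only through digestion libraries. Intergenic lncRNAs had 108 of 389 and antisense lncRNAs 104 of 337 at least 2-fold higher in digestion, with 91 and 104 that passed only through it.

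Malat1 (ENSMUSG00000092341, chr19:5795690-5802672 on GRCm38), a nuclear speckle RNA whose 3′ end is a triple helix and not a poly(A) tail, was at 79.3 to 178, median 103 normalised CPM in polyA and 2900 to 3384, median 3016 in digestion (-4.81 ± 0.09, edgeR adjusted p = 7.21e-18). Neat1, the scaffold of paraspeckles, was at 68.0 to 83.1, median 71.6 and 584 to 599.9, median 588 (-3.00 ± 0.03). Kcnq1ot1, an imprinted antisense RNA that spans 93092 bases, was at 0.749 to 1.66, median 1.08 and 79.1 to 84.2, median 81.2 (-6.15 ± 0.08). For each of the 3 the groups did not overlap, and the unselected means of batches 1 and 2 were 3624 and 3796 for Malat1, 604 and 606 for Neat1 and 76.2 and 80.0 for Kcnq1ot1, close to digestion. Of the 7 tested members of the list of nuclear lncRNAs, 4 were at least 2-fold higher in digestion and 3 were higher in polyA by less than 2-fold.

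The direction turned over for the globins, the oxygen carriers of red blood cells, which circulate through the liver. Hba-a1 (alpha globin, ENSMUSG00000069919) was at 44.7 to 88.6, median 64.4 normalised CPM in polyA and at 0 to 0.611, median 0.271 in digestion, where 1 of 9 libraries was listed at 0. Hba-a2 was at 84.2 to 184, median 93.6 and 0.342 to 1.24, median 0.957. The beta globins Hbb-bs and Hbb-bt were at 125 to 159.9, median 135 and 21.8 to 27.9, median 24.9 in polyA, and at 1.52 to 2.66, median 2.03 and 0.179 to 0.588, median 0.328 in digestion. Their log2 differences were 7.69 for Hba-a1, 7.09 for Hba-a2, 6.20 for Hbb-bt and 6.05 for Hbb-bs, and no library of one method reached the other. The unselected means of batches 1 and 2 were 62.6 and 53.4 for Hba-a1 and 100.2 and 94.5 for Hbb-bs, and the pull-down medians were 64.6 and 158, on the side of the polyA libraries. Alas2, the first enzyme of heme synthesis in red cell precursors, was at 100.2 to 117, median 109 in polyA and 68.8 to 75.04, median 71.3 in digestion (0.61 ± 0.02). The sixth red cell marker tested, the anion exchanger Slc4a1, went the other way at a low level, with 0.120 to 0.268, median 0.168 in polyA and 0.478 to 0.718, median 0.599 in digestion (-1.65 ± 0.17), and it passed the filter only through digestion libraries. Other genes hold 91.0% of the 31-base words of Hba-a2, and the sum of both alpha globins gave a log2 difference of 7.29.

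**Figure D2:**
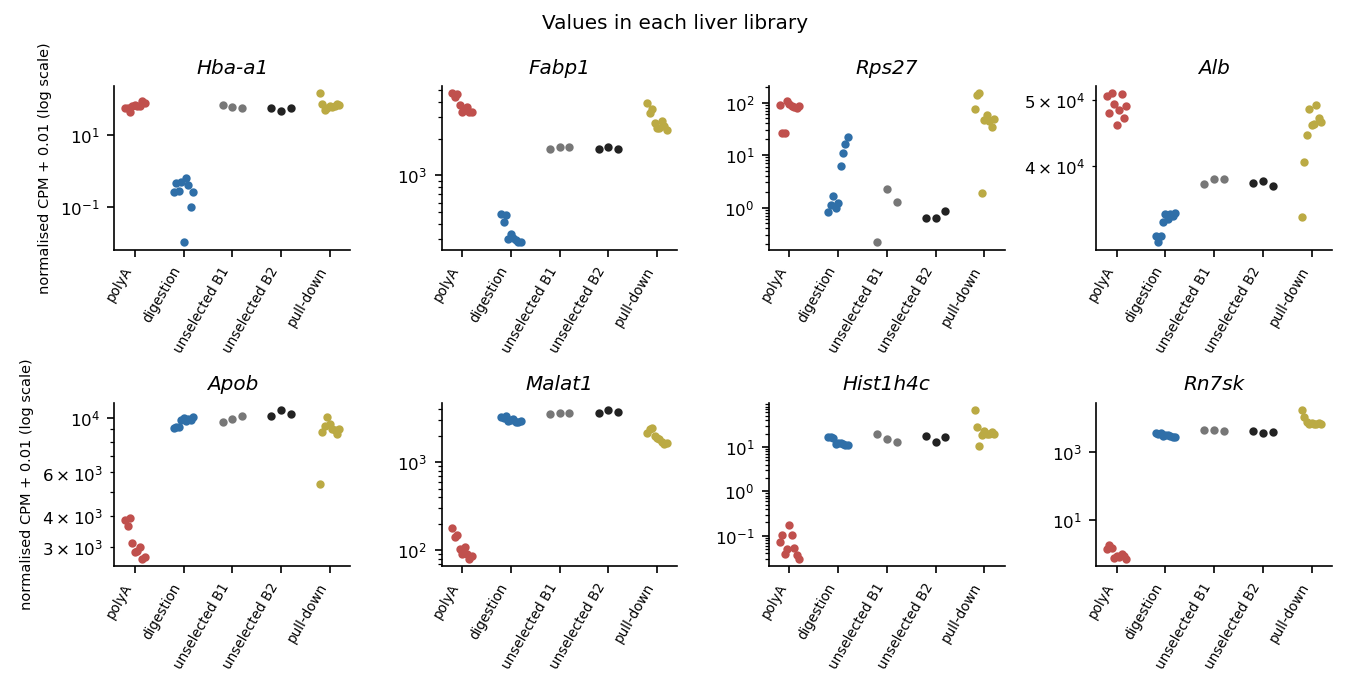
Normalised CPM plus 0.01 (log scale) of 8 genes in each liver library; 9 polyA, 9 digestion, 3 unselected libraries of each batch and 9 pull-down libraries. Digestion stands apart for Hba-a1, polyA stands apart for Malat1, Hist1h4c, Rn7sk and Apob, and for Fabp1 the unselected libraries lie between the methods.

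The 13 mRNAs of the mitochondrial genome, most of which carry short tails, took 2.76% to 4.93% of counts in polyA and 3.39% to 3.93% in digestion, with overlap and an exact sign-flip p adjusted to 1. In polyA the share moved with fragment length, with means of 2.90% for short, 3.25% for medium and 4.83% for long fragments (n = 3 each), while digestion gave 3.48%, 3.70% and 3.87%. Single genes moved in both directions: 8 of 13 were higher in polyA and 4 of 13 in digestion. mt-Nd6, the mRNA encoded on the light strand and known to lack a poly(A) tail, was at 2.40 to 20.0, median 3.87 normalised CPM in polyA and 78.6 to 109, median 94.1 in digestion (-3.90 ± 0.26, edgeR adjusted p = 1.58e-10). The mRNAs of the heavy strand mt-Cytb and mt-Nd4 were higher in polyA, with log2 differences of 0.97 ± 0.05 and 0.94 ± 0.06. Their means were 4013 and 2747 in polyA and 2016 and 1412 in digestion. Unselected means of batches 1 and 2 were higher than both, at 4337 and 4671 for mt-Cytb and 3399 and 3848 for mt-Nd4. Over the 13 mRNAs the median log2 difference was -0.17 for polyA against batch 1 and -1.23 for digestion against batch 2. mt-Co1, a subunit of cytochrome oxidase, was at 8087 to 15270, median 9178 in polyA and 10010 to 11160, median 10740 in digestion (-0.00 ± 0.08, edgeR adjusted p = 0.968).

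The value of a mitochondrial gene also depends on how counts were divided between it and a nuclear copy. mt-Co3, a further oxidase subunit, was at 439.6 to 862, median 616 normalised CPM in polyA and 2798 to 3457, median 3073 in digestion (-2.27 ± 0.08). Gm28437, a pseudogene that shares 100% of its 31-base words with other genes, went the other way, with 1537 to 4711, median 1881 and 474 to 1182, median 909.6 (1.48 ± 0.16). The sum of both was 2152 to 5151, median 2705 in polyA and 3786 to 4247, median 4002 in digestion, with a log2 difference of -0.28 (exact sign-flip test over 9 pairs, p = 0.0508). Gm28661, a copy of mt-Co2, was higher in polyA by 3.24 ± 0.25, and its sum with mt-Co2 and 1 further copy by 1.14. mt-Nd4l was higher by 1.88 ± 0.10 alone and by 0.95 with its copy Gm10222. These pseudogenes belong to the class of other pseudogenes, whose share of counts was 0.883% to 1.70% in polyA and 0.485% to 0.696% in digestion. Values of single genes with near copies are therefore uncertain.

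The same check changed several of the largest coding differences. Mup18, a major urinary protein of the liver, was at 24.96 to 1656, median 170.2 normalised CPM in polyA and 1.06 to 23.4, median 2.77 in digestion (5.67 ± 0.23), but the sum over it and 15 near copies was 1335 to 4864, median 1612 and 2323 to 3044, median 2797 (log2 -0.08; exact sign-flip test over 9 pairs, p = 0.387). Adnp, a homeodomain protein of chromatin, differed by -3.28 ± 0.17 alone and by -0.47 when summed with the overlapping gene Gm20716. Rps27, a protein of the small ribosomal subunit, was higher in polyA by 3.97 ± 0.46 alone and by 1.69 when summed with its retrogene Rps27rt and 1 further copy. In the unselected libraries Rps27 itself was at 1.23 and 0.697, far under its sum of 60.6 and 55.5.

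Across the 13255 tested nuclear protein-coding genes with an annotated transcript, the method difference followed transcript length. The median log2 difference was 1.26 for the 55 genes with transcripts under 500 bases, 0.93 for 601 genes of 500 to 1000 bases and 0.50 for 2631 genes of 1000 to 2000 bases. It crossed zero between the 2000 to 3000 base class (0.19, n = 2925) and the 3000 to 5000 base class (-0.14, n = 4212), and reached -0.54 (n = 2080), -0.96 (n = 598) and -1.26 (n = 153) in the classes up to 8000, up to 12000 and above 12000 bases. At least 2-fold higher in polyA were 274 of the 601 genes of 500 to 1000 bases and 0 of the 153 longest, and at least 2-fold higher in digestion were 18 and 102. Spearman's rho between length and log2 difference was -0.65 across genes, which share libraries and are not independent replicates, and it was -0.64, -0.64 and -0.61 in libraries of short, medium and long fragments.

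Set against the unselected libraries, most of this gradient lay in the polyA libraries. Against the unselected libraries of its own batch, polyA went from a median of 0.75 in genes of 500 to 1000 bases to -1.19 above 12000 bases. Digestion against batch 2 stayed between -0.02 and 0.06 in every class from 1000 bases up, and was -0.21 and -0.30 in the 2 shortest classes. After subtraction of both unselected references, rho between length and log2 difference was -0.58. The presence of AATAAA in the last 40 bases, of ATTAAA or of neither gave medians of -0.01, 0.03 and 0.02 for 8281, 1924 and 3050 genes.

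**Figure D3:**
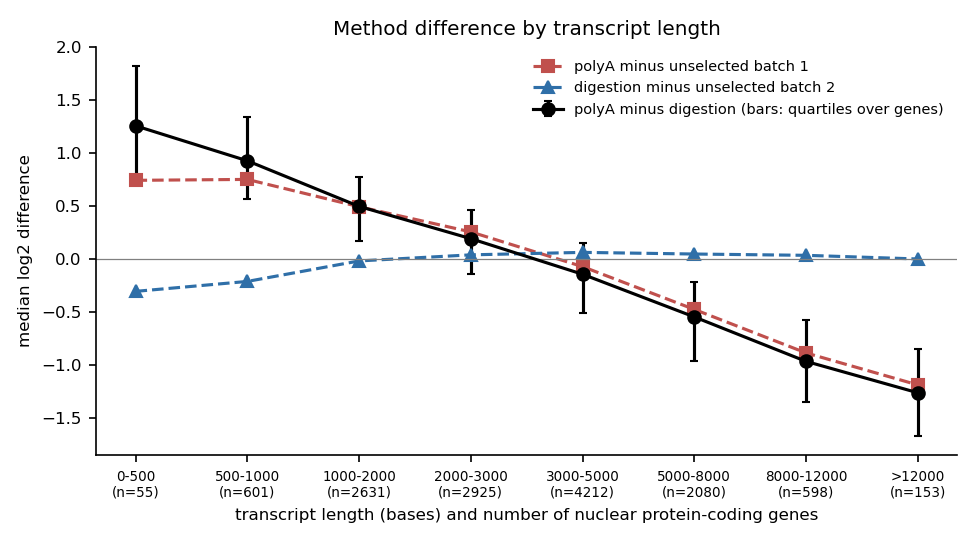
Median log2 difference of nuclear protein-coding genes by transcript length class; black, polyA minus digestion with quartiles over genes; red, polyA minus unselected batch 1; blue, digestion minus unselected batch 2. The red line falls from 0.75 to -1.19, while the blue line stays near 0 above 1000 bases.

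Several pathways had nearly all of their tested members higher in polyA. The lists of genes given here were chosen with earlier results of these data known, and their counts stand beside the background of 39.4% and 42.4% of all genes, or 6.90% and 14.7% for changes of at least 2-fold. Of 80 tested cytosolic ribosomal protein genes, 79 were higher in polyA, 59 of them at least 2-fold, with a median log2 difference of 1.31 and a median transcript of 910 bases. Their summed level was 10235 to 11762 normalised CPM in polyA, 4157 to 4999.7 in digestion and 5810.1 and 5637 in the median unselected library of batches 1 and 2. Rps2 was at 291 to 414, median 365 in polyA and 237 to 259, median 247 in digestion. Rpl21 of the large subunit was at 134 to 192, median 146 and 11.9 to 19.8, median 14.8, and Rpl36a at 35.1 to 87.8, median 48.8 and 3.11 to 9.07, median 4.69. With near copies summed, the log2 differences of Rpl21 and Rpl36a were 2.75 and 2.53.

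Among translation factors, 51 of 65 were higher in polyA and 9 in digestion, with a median of 0.48. Eef1a1, which delivers aminoacyl-tRNA to the ribosome, was at 3077 to 3563, median 3292 normalised CPM in polyA and 1801 to 1932, median 1878 in digestion, and Eef1b2, its exchange factor subunit, differed by 1.81 ± 0.05. Among nuclear-encoded subunits of oxidative phosphorylation, 76 of 79 were higher in polyA and 0 in digestion, with 36 at least 2-fold and a median of 0.93. Atp5k, a small subunit of ATP synthase, was at 59.7 to 111, median 67.7 and 4.06 to 10.3, median 5.61 (3.61 ± 0.05), while the catalytic subunit Atp5b was at 792 to 940.4, median 912 and 549 to 605, median 567 (0.62 ± 0.04). Their annotated transcripts hold 371 and 1916 bases. The complex I subunits Ndufa13 and Ndufa5 differed by 3.35 ± 0.07 and 2.99 ± 0.05.

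Mitochondrial ribosomal proteins had 74 of 78 genes higher in polyA (median 0.82), with Mrpl20 at 19.9 to 24.8, median 20.96 normalised CPM in polyA and 4.13 to 5.93, median 4.96 in digestion. The proteasome, which degrades ubiquitinated proteins, had 35 of 38 higher in polyA (median 0.89), with Psma5 of its core at 49.0 to 65.6, median 52.3 and 16.2 to 19.2, median 17.1. Heat shock proteins and chaperones had 16 of 22 higher (median 0.54), led by the small mitochondrial chaperonin Hspe1 (1.68 ± 0.04). Splicing factors were divided: 47 of 66 were higher in polyA and 13 in digestion (median 0.44), with the small core protein Snrpe at 1.55 and the 7442-base mRNA of Prpf8 at -0.37. The medians of these lists and of the ribosomal protein genes kept their sign under library totals and protein-coding totals, with values of 0.13 to 1.06.

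**Figure D4:**
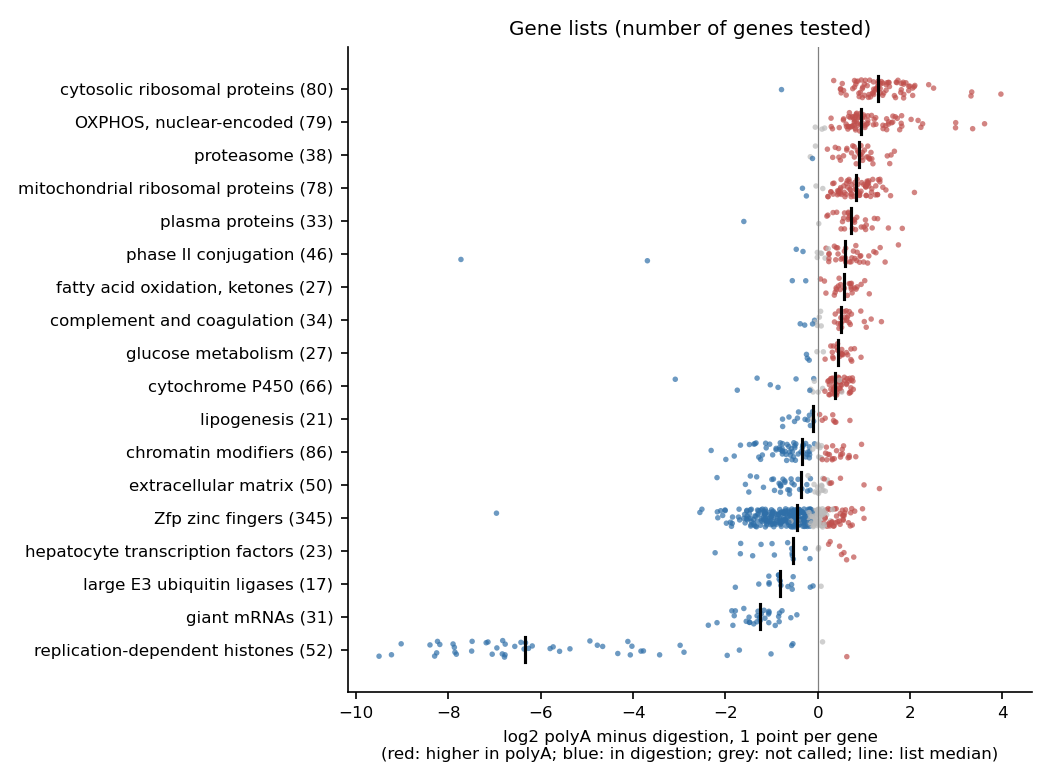
Log2 difference polyA minus digestion of each tested gene in 18 lists, with the list median as a black line; red genes were higher in polyA, blue in digestion, and grey genes were not called. Medians run from 1.31 for cytosolic ribosomal proteins to -6.35 for replication-dependent histones. Of the 52 histones 43 passed the filter on low counts only through digestion libraries, and the 9 that polyA libraries alone would have passed had a median of -1.01.

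The secreted proteins that define the liver were mostly higher in polyA. Of 33 plasma protein genes, 31 were higher in polyA, 9 at least 2-fold, and 1 was higher in digestion (median 0.73). Alb (ENSMUSG00000029368, chr5:90460897-90476602 on GRCm38), the main plasma protein, was at 46000 to 51150, median 48960 normalised CPM in polyA and 30790 to 34050, median 33360 in digestion, against 37990 and 37670 in the unselected libraries of batches 1 and 2. Apoc1, a small lipoprotein component, was at 2475 to 2737, median 2560 and 634 to 898, median 716 (1.83 ± 0.05), and Apoa2 of high-density lipoprotein at 3603 to 4413, median 3800 and 1180 to 1648, median 1297 (1.53 ± 0.04). Apob, the structural protein of very-low-density lipoprotein, went the other way, at 2685 to 3931, median 2988 and 9108 to 10050, median 9802 (-1.60 ± 0.06). In the unselected libraries Apob was at 9862 and 10400, close to digestion, whereas Apoc1 was at 1304 and 1265, between the methods. The annotated transcripts hold 532, 518 and 13934 bases for Apoc1, Apoa2 and Apob.

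Fabp1, the fatty acid carrier of the hepatocyte cytosol (ENSMUSG00000054422, chr6:71199827-71205023 on GRCm38), shares no 31-base word with another gene. It was at 3266 to 4670, median 3598 normalised CPM in polyA and 283 to 485, median 309 in digestion (3.45 ± 0.05, edgeR adjusted p = 3.31e-19), and at 1692 and 1665 in the unselected libraries. It was thus above the unselected level in polyA (log2 1.09) and further below it in digestion (log2 -2.33). Complement and coagulation genes had 25 of 34 higher in polyA and 4 in digestion (median 0.51), with the lectin Mbl2 at 1.38 ± 0.03. Iron and metal handling genes had 13 of 17 higher in polyA (median 0.66), with hepcidin, Hamp, at 668 to 849, median 759 and 282 to 329, median 298, and the ferritin heavy chain Fth1 at 710.1 to 952, median 893 and 377 to 460.2, median 408.

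Several lists of metabolic enzymes also had most members higher in polyA. Fatty acid oxidation and ketone genes had 25 of 27 higher in polyA (median 0.58), with Acadvl of beta oxidation at 1.02 ± 0.04. Only 2 of the 27 were at least 2-fold higher, a share (7.41%) near the 6.90% of all genes. Phase II conjugation enzymes had 36 of 46 higher (median 0.58), with Gstm1 at 2018 to 2464, median 2210 and 1228 to 1339, median 1282. Glucose metabolism had 22 of 27 higher and 3 lower (median 0.43), with 0 at least 2-fold in either direction. Pck1, the first committed step of gluconeogenesis, was at 2094 to 2430, median 2277 and 1442 to 1471, median 1464, and Ldha at 0.94. Cytochrome P450 genes had 50 of 66 higher in polyA and 8 in digestion (median 0.37). At least 2-fold higher were 0 in polyA and 4 in digestion, shares of the list under the 6.90% and 14.7% of all genes. The 4 included Cyp2u1 (-1.74 ± 0.03). Cyp3a11, an enzyme of drug oxidation, was at 4148 to 6311, median 4657 and 3750 to 4089, median 3961 (0.33 ± 0.07), and its call ended under library totals (log2 0.09, edgeR adjusted p = 0.199).

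Several metabolic lists were mixed. Urea cycle genes had 7 of 11 higher in polyA and 2 in digestion (median 0.13), with Cps1, the entry enzyme of the cycle, lower in polyA (-0.14 ± 0.02). Bile acid genes had a median of 0.23 and cholesterol synthesis genes of 0.08. The medians of these 3 lists changed sign under library totals, to -0.12, -0.02 and -0.17. Lipogenesis had 8 of 21 higher in polyA and 12 in digestion (median -0.11), and the fatty acid synthase Fasn and the carboxylase Acacb, with transcripts of 10050 and 8788 bases, were lower in polyA, with log2 differences of -0.76 ± 0.04 and -0.76 ± 0.04.

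Lists of long mRNAs and of regulators of transcription had most members higher in digestion. Of 31 genes listed for very long mRNAs, 31 were higher in digestion, 24 at least 2-fold, with a median of -1.26. Hspg2, the basement membrane proteoglycan perlecan, was at 12.9 to 20.3, median 16.9 normalised CPM in polyA and 72.8 to 78.0, median 73.9 in digestion, and Ahnak and Vps13a differed by -1.86 ± 0.03 and -1.84 ± 0.07. Large E3 ubiquitin ligases had 0 of 17 higher in polyA and 16 higher in digestion (median -0.81), with Huwe1 at 156 to 182, median 166 and 282 to 317, median 308 and Birc6 at 59.9 to 70.0, median 64.3 and 211 to 232, median 221. Chromatin modifiers had 21 of 86 higher in polyA and 56 in digestion (median -0.35). The methyltransferase Kmt2d was at 40.4 to 59.5, median 51.1 and 172 to 189, median 179.5, and the acetyltransferase Crebbp at 15.0 to 17.6, median 16.1 and 76.9 to 84.8, median 80.0, in each case with no overlap.

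Genes with the Zfp name of zinc finger proteins, many but not all of them transcription factors, had 228 of 345 higher in digestion, 80 at least 2-fold (21 of the 345 passed the filter on low counts only through digestion libraries), against 41 higher in polyA (median -0.44). Zfp407 was at 4.89 to 5.44, median 5.07 normalised CPM in polyA and 19.0 to 21.8, median 20.8 in digestion, and Zfp871 and Zfp644 differed by -1.24 ± 0.09 and -1.85 ± 0.07. Hepatocyte transcription factors had 14 of 23 higher in digestion, 5 at least 2-fold, and 7 higher in polyA (median -0.53). Nfia was at 18.3 to 24.5, median 19.4 and 92.2 to 97.6, median 95.7, Nfib at 45.04 to 66.3, median 47.4 and 161 to 171, median 166, and Onecut2 at 34.7 to 57.0, median 37.8 and 132 to 137, median 136. Circadian clock genes had 11 of 19 higher in digestion and 6 in polyA (median -0.23). Only Clock (-1.14 ± 0.05) and Rora (-1.27 ± 0.06) of the 19 passed 2-fold, a share under the 14.7% of all genes, and 8 of 19 had no overlap, against 51.2%. Immediate early genes went both ways, with 12 of 22 higher in digestion and 7 in polyA, 1 and 2 of them at least 2-fold (median -0.19). The GC-rich Jund (67.2% GC) was at -1.43 ± 0.10, while Gadd45g and Gadd45a, named here after their values were seen, were at 1.22 ± 0.10 and 1.04 ± 0.07.

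RNA polymerase II and Mediator divided within one machine, with 26 of 43 higher in polyA and 11 in digestion. The small polymerase subunit Polr2f was at 10.5 to 13.7, median 12.04 normalised CPM in polyA and 3.33 to 4.71, median 4.01 in digestion (1.60 ± 0.07), and the Mediator kinase-module subunit Med13 at 16.3 to 28.9, median 18.6 and 73.9 to 83.0, median 78.7 (-1.91 ± 0.08). The list median was 0.23 and changed sign under library totals, to -0.01. Among the other coding genes with the largest difference toward digestion were Dpysl2 (-3.42 ± 0.09), a cytoskeletal protein of growing axons, Nbeal1 (-2.99 ± 0.13), the homeodomain proteins Zfhx3 (-2.97 ± 0.04) and Zeb2 (-2.80 ± 0.05), and Phip (-2.60 ± 0.11). Their values did not overlap between methods. Their polyA values lay under the unselected level of batch 1 by log2 -2.34 for Phip to -3.79 for Dpysl2, while digestion was within 0.26 of batch 2 for these 5 genes.

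Markers of liver cell types differed between methods. In a bulk level fewer cells of a type and less RNA per cell cannot be told apart; here both methods were applied to the liver of the same mouse. Hepatocyte markers had 8 of 10 higher in polyA (median 0.68), with Apoa1 of high-density lipoprotein at 1.18 ± 0.03. Sinusoidal endothelial markers had 9 of 10 higher in digestion (median -0.67): the scavenger receptor Stab2 was at 20.8 to 25.5, median 24.0 normalised CPM in polyA and 62.3 to 68.0, median 65.1 in digestion, and the growth factor receptor Kdr at 17.4 to 20.9, median 18.1 and 41.2 to 47.0, median 44.2. Their summed level was 163 to 181 in polyA and 305 to 319 in digestion, against medians of 362 and 342 in the unselected libraries. Stellate cell markers had 6 of 10 higher in digestion and 2 in polyA, with log2 differences from -2.36 to 0.71. Their median was -0.60, and -0.29 against the unselected libraries. Reln was at 18.6 to 19.5, median 19.0 and 75.3 to 80.9, median 79.3, and Hgf, the lowest of the 10, at -2.36 ± 0.06. Kupffer cell markers were mixed, with 5 of 11 higher in polyA and 4 in digestion (median 0.02, of changing sign under other scalings), 1 each way at least 2-fold. The scavenger receptor Marco (1.48 ± 0.07) and the complement component C1qa (0.52 ± 0.05) were higher in polyA, and the growth factor receptor Csf1r (-0.84 ± 0.03) and Adgre1 (-1.15 ± 0.05) in digestion. Lymphocyte markers had 6 of 10 higher in polyA and 3 in digestion (median 0.45, which turned negative against the unselected libraries, -0.07). At least 2-fold higher were 1 in polyA and 2 in digestion. Their summed level went the other way from the median, at 6.80 to 9.31 in polyA and 14.5 to 16.1 in digestion. The pan-leukocyte member, the phosphatase Ptprc, went against most of the list (-1.54 ± 0.06). The part of transcript length in these marker differences was not tested; the median annotated transcript was 1764.5 bases for hepatocyte and 3492.5 for sinusoidal markers. The 8 cardiac markers were not among the genes tested. Extracellular matrix genes, made largely by non-parenchymal cells, had 30 of 50 higher in digestion and 6 in polyA (median -0.37), with Fn1, which hepatocytes also secrete, at -0.43 ± 0.03.

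At equal depth, digestion libraries detected more genes. With every library thinned to the smallest library total, 13079 to 13266 genes had at least 10 counts in polyA libraries and 14050 to 14111 in digestion libraries, higher in digestion in 9 of 9 pairs (exact sign-flip test, adjusted p = 0.00651). Protein-coding genes gave 12156 ± 24.2 and 12642 ± 18.8, and lncRNAs 641 ± 15.98 and 909 ± 6.35 (SD, n = 9). Detected in all digestion libraries and in no polyA library were 118 lncRNAs, 96 protein-coding genes, 54 processed pseudogenes, 13 other pseudogenes, 28 small nucleolar or Cajal body RNAs, 27 replication-dependent histones, 9 miscellaneous RNAs or ribozymes and 8 small nuclear RNAs. The reverse held for 8 processed pseudogenes, 1 lncRNA and 1 protein-coding gene.

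The size of the method difference also depended on the fragment length of the library. An interaction term, the long minus short effect in polyA less that in digestion, was called for 5951 of 15283 genes (38.9%, edgeR adjusted p under 0.05), with 2705 positive and 3246 negative, 296 of them at least 2-fold. Its sign followed GC content. Of 679 genes with transcripts under 40% GC, 494 had a positive term and 0 a negative one. Of 582 genes above 60% GC, 1 had a positive and 344 a negative one. Within polyA, long minus short fragments gave medians of 0.71 log2 under 40% GC and -0.49 above 60% GC, while within digestion they gave 0.07 and -0.04. The Spearman correlation between GC content and the method difference was 0.36 in short-fragment and 0.005 in long-fragment libraries, across genes.

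**Figure D5:**
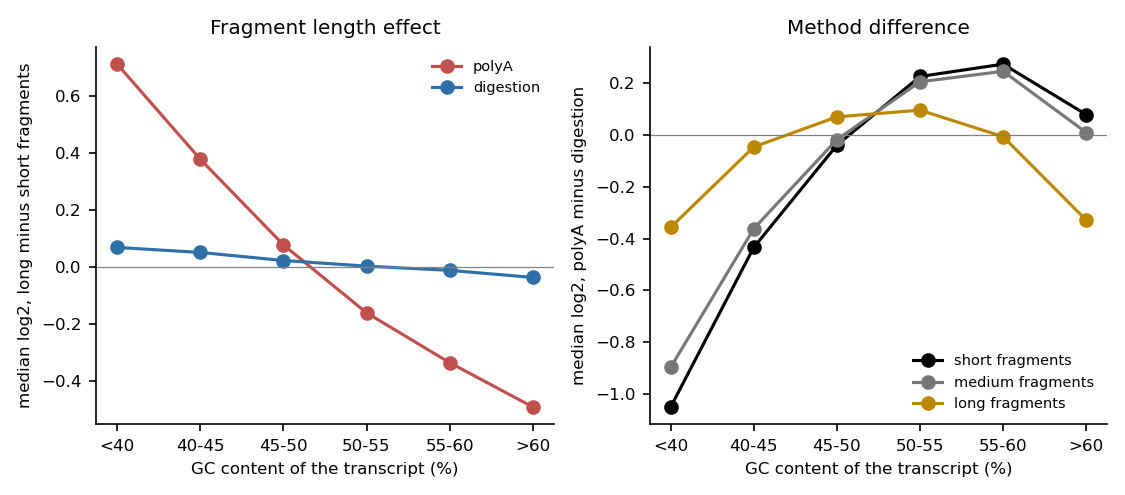
Left, median log2 of long minus short fragments within polyA (red) and digestion (blue) by transcript GC class; right, median log2 polyA minus digestion by GC class in libraries of short, medium and long fragments. The polyA line runs from 0.71 to -0.49, the digestion line stays within 0.07 of 0.

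Single genes showed the same sorting. Nbeal1, with 37.2% GC, differed by -3.51 in short-fragment and -2.34 in long-fragment libraries (interaction 1.11 ± 0.09, edgeR adjusted p = 8.41e-08). Apob, with 43.6% GC, differed by -1.82 and -1.25 (interaction 0.52 ± 0.04, edgeR adjusted p = 1.29e-07). The GC-rich Hspg2, at 60.9%, moved the other way, from -1.98 to -2.49 (interaction -0.56 ± 0.09, edgeR adjusted p = 5.66e-05), as did Fth1, from 1.31 to 0.72 (interaction -0.64 ± 0.06, edgeR adjusted p = 1.55e-07). Crebbp, at 51.7% GC, differed by -2.29 and -2.28, and its interaction did not pass (edgeR adjusted p = 0.606).

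The batch difference could be measured only where both batches held libraries of one kind. Between the 3 unselected libraries of batch 2 and the 3 of batch 1, 39 of 10642 genes passed (0.366%, edgeR adjusted p under 0.05), and 989 had an unadjusted p under 0.05. That count was 12 without batch 1 replicate 1, 68 without batch 2 replicate 1 and 103 under library totals. Of the 10630 genes tested in both comparisons 37 differed between batches, and 21 of these (56.8%) were at least 2-fold different between methods, against 16.1% of the 10630. Taking each method relative to the unselected libraries of its own batch left 6496 genes called, with 2970 higher in polyA and 3526 in digestion. Of these, 6406 were also called in the direct comparison. Under this contrast 76 of 80 ribosomal protein genes were higher in polyA and 30 of 31 very long mRNAs higher in digestion. Other lists had fewer calls than in the direct comparison: mitochondrial ribosomal proteins higher in polyA went from 74 to 53, cytochrome P450 genes from 50 to 32, hosts of small nucleolar RNAs from 12 to 5 and lymphocyte markers from 6 to 0. Zfp genes higher in digestion went from 228 to 95 and extracellular matrix genes from 30 to 17. Medians went from 0.82 to 0.68 for mitochondrial ribosomal proteins, from 0.37 to 0.41 for cytochrome P450 genes and from 0.55 to 0.48 for hosts. They went from -0.44 to -0.43 for Zfp genes, from -0.37 to -0.45 for extracellular matrix genes and from 0.45 to -0.07 for lymphocyte markers. The part of the added spread of the unselected libraries in the lost calls was not tested. Among the genes named above Rps27, Cps1 and Cyp3a11 were no longer called (edgeR adjusted p = 0.724, 0.414 and 0.0912), with log2 differences of 3.07, -0.11 and 0.42. Nor were C1qa, Hist3h2a, H2afx, H2afj and Slc4a1 (edgeR adjusted p = 0.653, 0.0531, 0.115, 0.233 and 0.760), with log2 differences of 0.12, -0.88, -0.76, -0.996 and -0.47. A batch effect that acted only on selected libraries, and the kit, were not tested.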

How the data were processed

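The authors deposited 1 table of expected counts per gene for all libraries; the submitters' processing notes name UMI-tools 1.1.1, Salmon 1.9.0, R 4.4.0 and GRCm38, with no order or settings. Gene types and transcripts came from GENCODE M21, to which 50896 of 51368 identifiers matched. Counts were rounded and tested with edgeR 4.0.16 (R 4.3.3, limma 3.58.1): filterByExpr, TMM, glmQLFit and glmQLFTest with ramp and length as factors, Benjamini-Hochberg adjusted p under 0.05. DESeq2 1.42.0 was an alternative. Normalised CPM used TMM sizes over all 33 liver libraries. Class shares and genes detected (at least 10 counts after thinning) were tested with the two-sided exact sign-flip test over 9 matched pairs. The edgeR step recovered known changes in simulated counts. Near copies of a gene were genes holding at least 20% of its 31-base words, a check added after seeing the data.

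The genes named were, by rule: the 12 coding genes of largest change each way with at least 10 normalised CPM and no overlap, the 3 of highest level per other RNA class, the highest and most changed members of each list, and the genes of largest method by length term; a subset is given, and some items are not reported here. The Y-linked gene, mt-Rnr2, Gadd45a, Gadd45g, Marco, Slc4a1, H2afx, Hist2h2be and Hist3h2a fall outside that rule. Members, lists and rule were chosen with earlier results of these data known. Molecules were identified by their adapters, but how the counts used this is not given in the sources used here.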

Additional observations from a re-analysis of the deposited data

Results flagged for a closer look

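Of 258 sets of 9 libraries examined (each named gene and RNA class in each method), 7 had 1 library set apart from the other 8 by Dixon's criterion, where chance alone flags about 1 in 20. Rpph1 was at 0.481 normalised CPM in the polyA library of medium ramp and long fragments, against at most 0.315 in the others. Gadd45a was at 2.61 in the polyA library of medium ramp and short fragments, under the others. Marco was at 5.87 in the polyA library of fast ramp and long fragments, against 4.47 to 5.18 in the others, and Hist3h2a at 1.89 in the digestion library of slow ramp and short fragments, against 2.47 to 2.81. The share of microRNA genes was 0.000133% in the polyA library of slow ramp and long fragments. Hspg2 was at 78.0 normalised CPM in the digestion library of slow ramp and long fragments. The rRNA share was 0.851% in the digestion library of fast ramp and medium fragments, and the report gives the rRNA comparison without it.

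The method difference depended on fragment length for 5951 genes by the interaction test. The largest terms belonged to genes with near copies: Tpt1-ps3 (14.14 log2, with 3 digestion libraries at 0), Rpl27-ps3 (10.40 log2, also with 3 at 0) and Gm5641 (-9.03 log2, with 6 at 0). Fits against libraries at 0 depend on the prior count and are no bound. Summed with near copies, the method difference of the 3 was 0.34, 1.24 and 0.97 log2.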

How the results depend on the processing

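Counts of called genes stayed within 1.5 times the reported ones under most alternatives. Of the 12500 genes called, 3301 changed at least 2-fold. Library totals left 4007 genes higher in polyA, 640 of them at least 2-fold, and protein-coding totals 3558 and 576, with 3386 at least 2-fold higher in digestion. With no count filter 3434 genes were at least 2-fold higher in digestion; with a mean of at least 50 counts, 649 were at that size in polyA and 1241 in digestion. Against the unselected libraries of each batch, 6496 were called, 2970 higher in polyA and 3526 in digestion. The unselected batch comparison called 103 genes under library totals and 12 (without batch 1 replicate 1) to 68 (without batch 2 replicate 1) genes leaving out 1 library; with the replicate number as a block it called 82, although same-numbered libraries did not deviate together, so the numbers pair nothing.

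The share of other RNA genes differed by -0.00331 percentage points when divided by protein-coding counts (exact test, adjusted p = 0.0185), and without 1 pair the rRNA difference was -0.07374 percentage points (exact p = 0.0547). Processed pseudogenes detected at 50 or more counts were more numerous in polyA by 9.11. Reversed signs were found for mt-Co1 (0.013 with no filter, 0.024 with no covariates, 0.0085 with all 33 libraries, 0.12 against the unselected libraries, 0.078 without medium and 0.12 without short fragments, 0.082 with near copies), for mt-Rnr2 (0.0063 with the matched pair as a block, 0.023 with no covariates, 0.20 against the unselected libraries, 0.11 without medium or without short fragments), for Hist2h2be (-0.14 with library totals, -0.21 with protein-coding totals, -0.098 without long fragments), for Mup18 (-0.084) and for Gm28437 (-0.28), the last 2 with near copies summed. A level of 3 counts corresponds on average to 0.0694 normalised CPM in polyA and 0.0724 in digestion, and lower values cannot be ranked.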
